A study of Homo sapiens with 7 samples.

Results

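The cluster of miR-191 and miR-425 is a pair of human microRNA hairpins (hsa-miR-191-5p and its relatives in the deposited names), each of which can give a mature microRNA from its 5p and its 3p arm. The members were taken from the deposited table by name: miR-191-5p, miR-191-3p, miR-425-5p and miR-425-3p. All 4 names had a row, out of 480 mature microRNA names in all. The libraries came from A375, an established human melanoma cell line, grown for 24 h and crosslinked with 1% formaldehyde for 10 min. In miR-CATCHv2.0, the assay used, probes pull down a chosen mRNA and the microRNAs held with it are sequenced. Here the bait was the 3' UTR of the X1 isoform of BRAF, which encodes a kinase often mutated in melanoma, captured 3 times with a probe set called ODD and 3 times with a probe set called EVEN. These 6 libraries are called X1 probes below, and the control was 1 library captured with scrambled probes. All 7 captures used the same line with no other treatment named, so the values describe 1 cell line. The ODD and EVEN captures are stated to be independent, but nothing says that they came from separate cultures, so the spread between them may be technical.

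The sample descriptions end in a number: both replicate 1 libraries carry 9, both replicate 2 libraries 10, and the scrambled library shares 12 with replicate 3 of each probe set. What it marks is not given. It is called the description number here. Values are RPM, reads scaled so that every library sums to 1e+06, and a larger captured amount of a microRNA and a smaller amount of all others cannot be told apart. In bulk samples such as these, fewer cells of a type and less RNA per cell cannot be told apart either. Library totals ran from 4049 to 35508 reads, with 4647 in the scrambled library. Of 7 melanoma and pigment cell microRNAs, 5 had rows, while miR-211-5p and miR-514a-3p had none. Together the 5 held 29811 to 40751 RPM in the X1-probe libraries and 37874 RPM in the scrambled one. The highest X1-probe means among them were those of miR-222-3p, 17169 RPM, and miR-221-3p, 9132 RPM. The lowest was that of miR-509-3p, with 6 reads in all. Markers of epithelial, blood, muscle and neuronal cells summed to at most 741 RPM per list in any X1-probe library and to 0, 215, 646 and 1291 RPM in the scrambled library. A liver marker, miR-122-5p, had no row.

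miR-191 and miR-425 are transcribed together from within the gene DALRD3, and Drosha and Dicer cut each hairpin out of that shared transcript. A mature strand loaded into an Argonaute protein finds its target mRNAs mainly through its seed, the bases near its 5' end. miR-191-5p is made in most human tissues, is raised in several tumour types and is a common reference for microRNA measurements by PCR. miR-425-5p, its neighbour, is also reported as raised in tumours.

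The mature sequences are shown because reads can be credited to a member only if no other microRNA in the table resembles it. They are RefSeq's, on build GRCh38.p14, and 3 of the 4 members matched. miR-425-5p had no mature entry there, so whether another name resembles it was not checked. Capitals mark the seed, bases 2 to 8 counted from the 5' end.
miR-191-5p: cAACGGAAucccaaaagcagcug
miR-191-3p: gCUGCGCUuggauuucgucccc
miR-425-3p: aUCGGGAAugucguguccgccc
They lie on the minus strand of chromosome 3, miR-191-5p at chr3:49020672-49020694, miR-191-3p at chr3:49020631-49020652 and miR-425-3p at chr3:49020159-49020180. The hairpins are separated by 383 bases, and both lie inside DALRD3 in RefSeq, on the strand of that gene.

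The 3 seeds differ from one another. Of the 405 other mature names in the table with a RefSeq sequence, 0 shared bases 2 to 8, 2 to 7 or 3 to 8 with miR-191-5p. The same held over all 2369 other mature names of the RefSeq table. The nearest sequence in the table was that of miR-1203, shown to give the distance.
miR-1203: cCCGGAGCcaggaugcagcuc
It is 9 single-base edits away from miR-191-5p and had 2 reads in all 7 libraries together. Among the names with a sequence, miR-191-5p thus has no seed relative here. miR-191-3p and miR-425-3p also had no name in the table with their seed, and their nearest names were 9 edits away. Matches of these seeds in the BRAF-X1 3' UTR were not analysed here.

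miR-191-5p was among the most abundant microRNAs in all 7 captures, the scrambled one included. It had 300, 1121 and 161 reads in ODD replicates 1 to 3, which is 27721, 31570 and 39763 RPM. In EVEN replicates 1 to 3 it had 245, 407 and 197 reads, or 26367, 28084 and 41326 RPM. The scrambled library had 186 reads, or 40026 RPM. Both replicate 3 libraries and the scrambled library were high, the other 4 were low, and the ODD and EVEN values overlapped along most of their range. By abundance it stood 5th, 4th and 4th among the mature names of ODD replicates 1 to 3, 7th, 6th and 3rd in the EVEN libraries in the same order, and 3rd with scrambled probes.

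Ordered by level, the scrambled library came first with 40026 RPM (exact 95% interval 34573 to 46066). ODD probes followed with 33018 ± 6150 RPM (SD, n = 3), and EVEN probes with 31926 ± 8186 RPM (SD, n = 3). The means of ODD and EVEN differed by 1093 RPM, less than the SD of either set (exact two-sided permutation p = 0.9, where 3 against 3 cannot go below 0.1). With X1 probes as a whole the level was 32472 ± 6503 RPM (SD, n = 6). Intervals of single libraries are exact (Clopper-Pearson, from the reads). They cover counting error only. No molecular identifiers are named, so copies of the same molecule may be counted as separate reads, and the intervals may be too narrow.

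**Figure D1:**
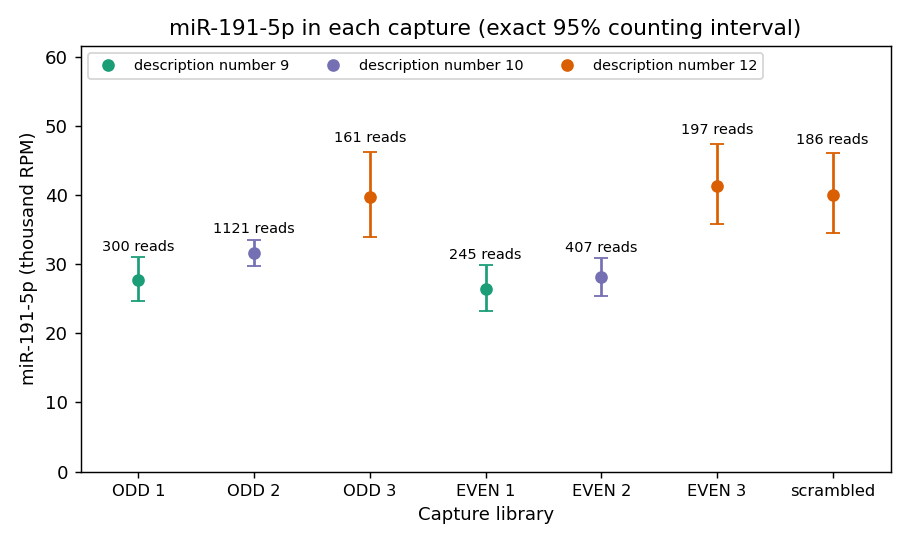
Level of miR-191-5p in units of 1000 RPM (vertical axis) in each of the 7 capture libraries (horizontal axis). Points are single libraries, bars exact 95% counting intervals, colours the description number and labels the reads. The 3 libraries of description number 12 sit between 39763 and 41326 RPM, and the other 4 between 26367 and 31570 RPM.

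The study's design asks which microRNAs bind BRAF-X1, and the comparison for that sets X1 probes against scrambled probes. miR-191-5p did not pass this test. By limma it differed by -0.32 on the log2 scale, with an SE of 0.30, a 95% interval from -0.93 to 0.28 and an adjusted p of 0.673. It was lower than scrambled in 5 of 6 libraries, and EVEN replicate 3 was higher. Differences are on the log2(RPM + 10) scale, p-values are adjusted over all 242 tested microRNAs, and the spread of the lone scrambled library was taken to be that of the other groups. Against scrambled, ODD probes gave -0.29 (95% interval -0.94 to 0.36, adjusted p = 0.729 by limma) and EVEN probes -0.36 (-1.01 to 0.29, adjusted p = 0.667 by limma). Leaving out ODD replicate 1 moved the ODD value to -0.18, and leaving out EVEN replicate 3 moved the EVEN value to -0.56. These contrasts share the scrambled library. ODD against EVEN gave 0.062 (95% interval -0.40 to 0.52, adjusted p = 0.981 by limma).

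Of the 4 members, miR-191-5p and miR-425-5p passed the filter of 10 RPM in at least 3 libraries, and 0 of these 2 passed the test in any of the 4 contrasts. Over all 242 microRNAs, limma called 2 higher with X1 probes than with scrambled probes (0.826%) and 0 lower (0%). At an unadjusted p under 0.05 these numbers were 17 and 4, and without EVEN replicate 2 the 2 calls became 0. Each probe set alone also gave 0.826% higher and 0% lower against scrambled. For ODD against EVEN, 0% were higher and 0.413% lower. With shares this low over all microRNAs, a count of 0 among 2 members says little about the members.

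**Figure D2:**
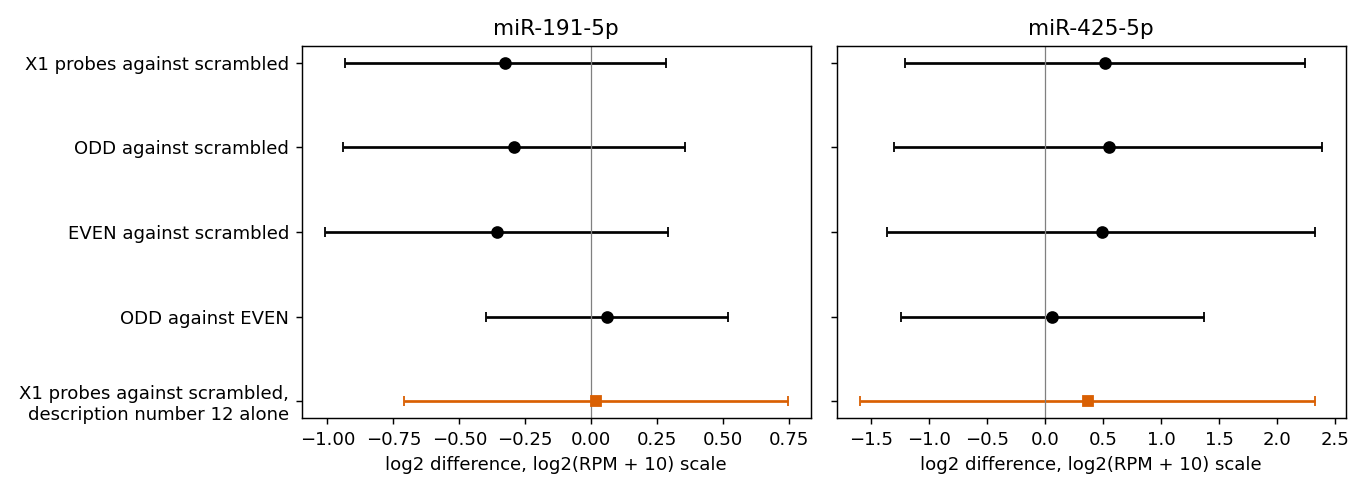
Log2 differences of miR-191-5p (left) and miR-425-5p (right) on the log2(RPM + 10) scale, with 95% intervals from limma, for the 4 contrasts (black circles) and for the libraries of description number 12 alone (orange squares). Every interval holds 0, and for miR-191-5p the difference from scrambled is -0.32 over all libraries and 0.018 within description number 12.

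The levels of miR-191-5p split by description number, while the ODD and EVEN values overlapped. The 3 libraries of number 12 had 40372 ± 837 RPM (SD, n = 3) and the 4 of numbers 9 and 10 had 28436 ± 2217 RPM (SD, n = 4). This is a 1.42-fold difference, or 0.51 on the log2 scale, seen in the data before it was described, so no test is given for it. The counting intervals of the number 12 libraries began at 33955 RPM or above, and those of the other 4 ended at 33442 RPM or below. With RPM recomputed over 1 row per mature name, the sets again did not overlap, at 52856 to 55902 RPM against 37149 to 43654 RPM.

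Within number 12 the 3 libraries differed little in miR-191-5p. ODD replicate 3 and scrambled differed by -0.0095 on the log2 scale, and EVEN replicate 3 and scrambled by 0.046. A fit of these 3 libraries alone gave 0.018 for X1 probes against scrambled (limma, 95% interval -0.71 to 0.75, 1 residual degree of freedom). Numbers 9 and 10 hold no scrambled library. Their 4 X1-probe libraries against scrambled gave -0.50 (limma, 95% interval -1.08 to 0.091). Both fits were added after the levels had been seen. The split placed the high X1-probe libraries in 1 fit and the low ones in the other. The gap between these values follows from that choice and adds no evidence on the probes. ODD minus EVEN was 0.072 within number 9, 0.17 within number 10 and -0.056 within number 12.

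Depth moved with the description number. The number 12 libraries held 4049, 4767 and 4647 reads and the others 9292 to 35508 reads, so number and depth cannot be told apart as companions of the high level. With log2 depth in the fit, also added later, the difference of miR-191-5p from scrambled was -0.15 (limma, 95% interval -0.77 to 0.47, adjusted p = 0.863). Among the 4 other libraries the miR-191-5p level rose in order of depth. It went from 26367 RPM at 9292 reads in EVEN replicate 1 to 31570 RPM at 35508 reads in ODD replicate 2, with overlapping counting intervals.

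Other abundant microRNAs were looked at in the same way. Of the 68 with at least 1000 RPM on average, 5 (7.35%) had all 3 number 12 libraries above the other 4, and 2 (2.94%) had them all below. Above were miR-191-5p, miR-222-3p, miR-30a-5p, miR-182-5p and miR-5096. miR-182-5p barely separated, with 8150 RPM as its lowest number 12 value and 8142 RPM as its highest other value. Below were let-7e-5p and miR-1260b. Some of the 68 names would separate this way in a random order of libraries, and how many was not estimated. The median difference between the sets over the 68 was -0.023 on the log2 scale, and that of miR-191-5p was the 10th highest. miR-146b-5p had the highest, 1.06, with overlapping sets.

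Likeness of profile was measured as the root mean square difference between log2(RPM + 10) values over the 7 libraries, after each microRNA's mean was subtracted. The 5 nearest to miR-191-5p were miR-222-3p (0.15), a microRNA often raised in melanoma, miR-30a-5p (0.18), the HOX-cluster microRNA miR-10a-5p (0.19), miR-182-5p (0.21) and miR-92b-3p (0.21). The median over the other 67 abundant microRNAs was 0.45 and the farthest, let-7c-5p, was at 2.63. A nearly flat profile also scores low by this measure. miR-27b-3p, with an SD of 0.096 on the log2 scale over the 7 libraries, was 7th nearest at 0.22. The nearest, miR-222-3p, had 20768 to 24450 RPM in the number 12 libraries and 12628 to 16171 RPM in the others. These profiles share their libraries and their depths, and 7 libraries set them.

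**Figure D3:**
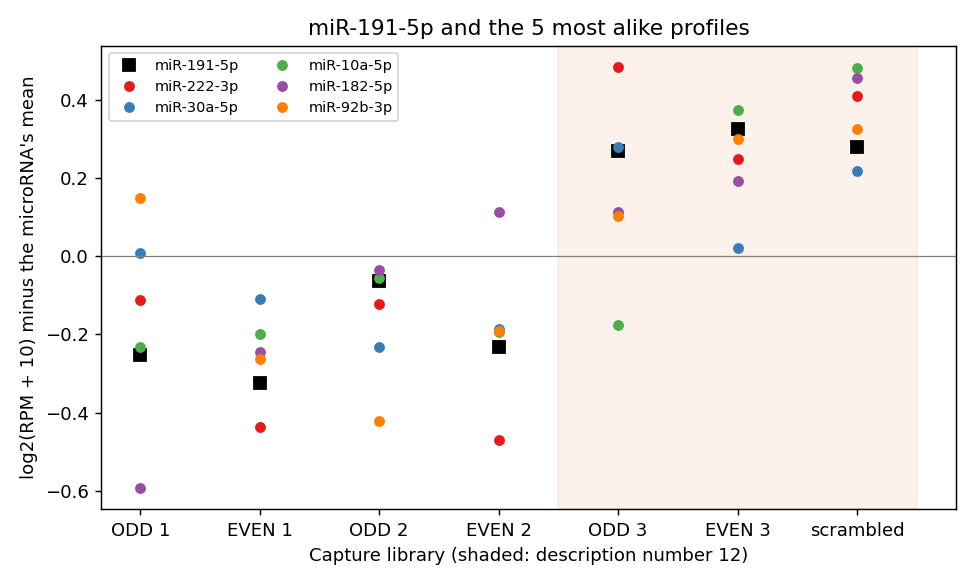
Log2(RPM + 10) minus each microRNA's own mean (vertical axis) for miR-191-5p (black squares) and the 5 microRNAs with the nearest profiles (circles) in the 7 libraries, ordered by description number, with number 12 shaded. miR-191-5p, miR-222-3p, miR-30a-5p and miR-182-5p have all 3 shaded values above the other 4, whereas miR-10a-5p and miR-92b-3p do not.

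Over the 7 libraries miR-191-5p was the 5th most abundant mature name, with 33551 ± 6587 RPM (SD, n = 7), and 4 names stood above it. miR-92a-3p exceeded it in 7 of 7 libraries, miR-92b-3p in 6, let-7a-5p in 5 and miR-181a-5p in 4. The mean of miR-181a-5p, 34235 ± 7144 RPM (SD, n = 7), lay within the spread of miR-191-5p. Just below came miR-423-5p with 26402 ± 5171 RPM (SD, n = 7) and miR-21-5p with 23238 ± 4055 RPM (SD, n = 7), a microRNA raised in many tumours. Each of them exceeded miR-191-5p in 1 library, as did miR-100-5p. The next names, miR-27b-3p and miR-222-3p, exceeded it in 0 libraries. Of these 9 neighbours, 0 passed the test in any contrast (limma, adjusted p from 0.667 to 0.992).

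miR-191-5p serves as a reference microRNA in PCR, so its spread between captures was set beside that of others used this way. The list held miR-191-5p, miR-425-5p, miR-103a-3p, miR-16-5p, miR-93-5p, miR-25-3p, miR-423-5p, miR-423-3p, miR-24-3p, miR-26a-5p, miR-30c-5p and let-7a-5p, and all 12 were tested. Over the 6 X1-probe libraries the SD of log2(RPM + 10) was 0.28 for miR-191-5p, second lowest of the 12 after let-7a-5p (0.26). miR-16-5p (0.31) and miR-425-5p (0.31) came next, and miR-24-3p (0.63) had the highest. miR-425-5p had only 2 to 33 reads in these libraries, so counting error alone can move its place in this order. As a share of its mean, the SD of miR-191-5p was 20.03%. Among the 68 abundant microRNAs its SD was the 22nd lowest, with a median of 0.36.

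Counting error alone, with every read taken as a separate molecule, would give miR-191-5p an SD of 0.087 on this scale. Its spread was 3.20 times that counting SD. That ratio was the 63rd lowest of 68, with a median of 1.38. Within the reference list, let-7a-5p (3.19) and miR-423-5p (3.20) had similar ratios. miR-16-5p had a ratio of 1.36 and miR-24-3p, with a counting SD of 0.54, a ratio of 1.17. The order of the list by SD is thus not its order beyond counting error. Deeply counted microRNAs have little counting error, which raises the ratio for any given spread. Without the 2 number 12 libraries the SD of miR-191-5p over the other 4 X1-probe libraries was 0.11.

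Of the reference list, 0 of 12 members passed in any of the 4 contrasts. Over all 242 microRNAs the share called was 0.826% higher and 0% lower against scrambled, and 0% higher and 0.413% lower for ODD against EVEN, so a count of 0 among 12 is near this background. With X1 probes against scrambled, 7 of 12 differences were above 0, from -0.76 for miR-24-3p to 0.92 for miR-93-5p, with a median of 0.16 against 0.096 over all 242 tested (limma, lowest adjusted p = 0.673). The lowest adjusted p by limma was 0.729 for ODD and 0.667 for EVEN against scrambled, and 0.909 for ODD against EVEN. The median of ODD against EVEN was 0.061 for the list and 0.072 over all tested.

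miR-425-5p was present in every capture at low counts. ODD replicates 1 to 3 had 6, 33 and 2 reads, or 554, 929 and 494 RPM. EVEN replicates 1 to 3 had 6, 8 and 3 reads, or 646, 552 and 629 RPM. The scrambled library had 2 reads, or 430 RPM (exact 95% interval 52.1 to 1554). All 6 X1-probe libraries were above the scrambled value, but all lay within its interval. miR-425-5p stood between 68th and 92nd by abundance in the X1-probe libraries and 95th in the scrambled one.

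The level of miR-425-5p was 659 ± 236 RPM with ODD probes (SD, n = 3), 609 ± 50.04 RPM with EVEN probes (SD, n = 3) and 634 ± 155 RPM with X1 probes as a whole (SD, n = 6). Its difference from scrambled was 0.52 (limma, SE 0.85, 95% interval -1.21 to 2.24, adjusted p = 0.717). ODD against scrambled gave 0.55 and EVEN against scrambled 0.49 (limma, adjusted p = 0.798 and 0.844). Without ODD replicate 2, its highest library, the ODD value was 0.28. ODD against EVEN gave 0.060 (limma, 95% interval -1.24 to 1.37, adjusted p = 0.982; exact two-sided permutation p = 0.9 on RPM). At 2 scrambled reads, a change of up to several-fold in miR-425-5p was not detectable.

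**Figure D4:**
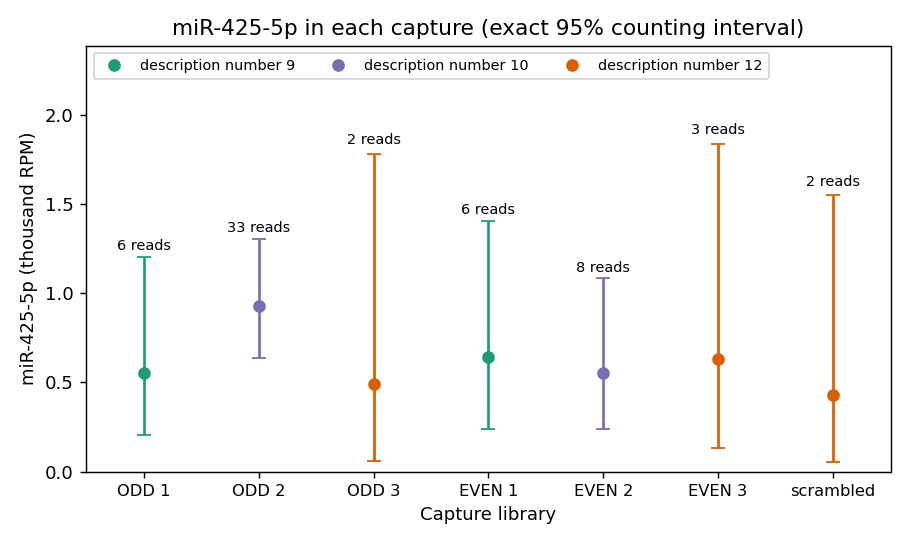
Level of miR-425-5p in units of 1000 RPM (vertical axis) in each of the 7 capture libraries (horizontal axis), with exact 95% counting intervals as bars, colours for the description number and reads as labels. ODD replicate 2, with 33 reads, has the highest value, 929 RPM, and all 7 intervals overlap.

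Unlike miR-191-5p, miR-425-5p was not high in the libraries of description number 12. It had 518 ± 102 RPM there (SD, n = 3) and 670 ± 178 RPM in the other 4 (SD, n = 4), a log2 difference of -0.35 with overlapping sets and 7 reads in all for number 12. Within number 12, ODD replicate 3 differed from scrambled by 0.19 and EVEN replicate 3 by 0.54 on the log2 scale. ODD minus EVEN for miR-425-5p was -0.22 within number 9, 0.74 within number 10 and -0.34 within number 12, so its direction differed between the numbers.

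The 2 neighbours were far apart in level in every library, although they leave the same transcript. miR-191-5p had 50, 34.0 and 80.5 reads for each miR-425-5p read in ODD replicates 1 to 3. The ratio was 40.8, 50.9 and 65.7 in the EVEN libraries in the same order, and 93.0 with scrambled probes. It was highest in the scrambled library and in both replicate 3 libraries, the 3 with 2 or 3 reads of miR-425-5p. Over all libraries, 60 of 2677 reads of the pair were miR-425-5p, which is 2.24% (exact 95% interval 1.71 to 2.88%). The share was 1.27% in number 12 (7 of 551 reads, 0.512 to 2.60%) and 2.49% in numbers 9 and 10 (53 of 2126 reads, 1.87 to 3.25%), with overlapping intervals. With X1 probes it was 2.33% (1.77 to 3.002%) and with scrambled probes 1.06% (0.129 to 3.79%), also overlapping. Intervals of summed reads cover counting error only and leave out spread between libraries. ODD replicate 2 alone gave 33 of the 60 miR-425-5p reads. Capture, ligation and sequencing can favour particular small RNAs, and their part in this ratio was not tested.

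Both hairpins were represented almost wholly by the 5p arm. miR-191-3p had 3 reads in ODD replicate 2, or 84.5 RPM, 1 read in EVEN replicate 2, or 69.0 RPM, and 0 reads in the other 5 libraries. Those 2 libraries are the deepest. Summed over the 7 libraries, miR-191-3p made up 4 of 2621 miR-191 reads, or 0.153% (exact 95% interval 0.0416 to 0.390%), against 2617 reads of miR-191-5p. miR-425-3p had 1 read, in ODD replicate 2, beside 60 reads of miR-425-5p in all libraries, or 1.64% of the miR-425 reads (0.0415 to 8.80%). These summed intervals also leave out spread between libraries.

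The 3p arms entered no test, since neither reached 10 RPM in 3 libraries. With X1 probes miR-191-3p had 25.6 ± 39.9 RPM (SD, n = 6). The scrambled library, with 0 reads of miR-191-3p and miR-425-3p, allows up to 646 RPM of each, taking 3 reads as the one-sided limit that a count of 0 allows, so no fold is given. At this depth a difference of either 3p arm between probe sets was not detectable.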

How the data were processed

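Small RNA libraries of 7 captures were analysed. The authors deposited 1 table of 498 hairpin rows in RPM. The submitters' processing notes name CASAVA 1.8 and cutadapt 1.2.1. For the aligner, the counting rule and the build, the sources used here give nothing. Dividing the deposited values by the worth of 1 read gave whole reads everywhere (100% within 1e-06 reads), and so the depths. Each of the 480 names was represented by its row of highest RPM. Each member has 1 row, but repeated hairpin rows of other names enter the RPM total.

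Groups came from the titles. The main test was limma 3.58.1 (R 4.3.3) on log2 values of RPM + 10, fitting each group's mean, with a trend in eBayes and Benjamini-Hochberg adjustment at 0.05, on names with at least 10 RPM in at least 3 libraries. Its ODD against EVEN fit was tested on simulated data that held counting error but no further spread between libraries, so such spread was not covered. Named microRNAs were the members, 5 neighbours in abundance on either side where present, the 5 nearest profiles, the reference list and the nearest sequence. Members, lists and tests were chosen with earlier results of these data known.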

Additional observations from a re-analysis of the deposited data

Results flagged for a closer look

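The miR-425-5p level of ODD replicate 2, 929 RPM, stood apart from the other 5 X1-probe libraries, of which the next highest had 646 RPM. The gap took up 0.651 of the range, above the 95% limit of 0.625 for 6 values (Dixon's test), a limit that chance passes in about 5% of groups. ODD replicate 2 is the deepest library, and its counting interval overlaps those of the other libraries. The levels of miR-191-5p and the ratio of miR-191-5p to miR-425-5p had no such value.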

How the results depend on the processing

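Neither miR-191-5p nor miR-425-5p passed in any contrast under any of the other settings run, with adjusted p from 0.425 to 1 by limma, and 0 members of the reference list did. With the replicate block (description number) the difference of miR-191-5p from scrambled turned sign, to 0.018 for X1 probes and 0.049 for ODD probes. For EVEN probes it shrank to -0.013. Number 12 alone also gave 0.018 for X1 probes. This is the same estimate and not a second result, because only number 12 holds a scrambled library. Across the 242 microRNAs, same-numbered ODD and EVEN libraries had correlations of -0.044, 0.072 and 0.019. Differently numbered ones had -0.103 to 0.069. Across the 68 with a mean of at least 1000 RPM, the same-numbered values were -0.060, -0.040 and, in number 12, -0.377. The differently numbered ones there ran from -0.380 to 0.370. These values show no clear pairing by number, and because counting error enters them they cannot settle it. The block changed no other direction of the members. For ODD against EVEN, leaving out 1 library at a time gave -0.080 to 0.26 for miR-191-5p (-2280 to 5793 RPM), below 0 without ODD replicate 3, EVEN replicate 1 (-1687 RPM) or EVEN replicate 2, and -0.21 to 0.24 for miR-425-5p, below 0 without ODD replicate 2 or EVEN replicate 2. With log2 depth it was -0.028 for miR-425-5p. Against scrambled, a library left out gave -0.43 to -0.26 (X1 probes), -0.44 to -0.18 (ODD) and -0.56 to -0.23 (EVEN) for miR-191-5p, and 0.38 to 0.61, 0.28 to 0.72 and 0.44 to 0.56 for miR-425-5p. The cause was not tested.

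Over all microRNAs, the 2 higher calls with X1 probes became 0 with the largest pseudocount, a mean of at least 1000 RPM, the replicate block and number 12 alone, 1 with quantile scaling, and 0 to 2 with a library left out. The 2 of ODD against scrambled became 0 under those first 3 settings, quantile scaling and no eBayes trend, and 0 to 2 with a library left out. The 2 of EVEN became 1 with the largest pseudocount or the 1000 RPM mean, 0 with quantile scaling or the block, and 0 to 3 with a library left out. In all 3 contrasts the 0 came without EVEN replicate 2, and EVEN also gave 1 without EVEN replicate 1 and 3 without ODD replicate 3. Lower calls against scrambled rose from 0 to 9 in each of these contrasts with no filter, and to 18 for number 12 alone, a fit with 1 residual degree of freedom; the cause of the 18 was not tested. The 1 lower call of ODD against EVEN became 0 with pseudocount 1, no filter, quantile scaling, the total over 1 row per name, the block and no number 12 libraries, 3 with no trend, 2 with every hairpin row, and 0 to 1 with a library left out (1 only without ODD replicate 2). The total over 1 row per name raised the level of miR-191-5p to 44358 RPM with X1 probes and 53464 RPM with scrambled probes. The planned TMM, edgeR and DESeq2 alternatives on recovered reads were not run. Depth limits miR-425-5p and the 3p arms most, at 60 reads or fewer.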
